A study of Mus musculus with 2 samples.

Results

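The genes described here encode proteins that carry, store or repress mRNA in neurons: the FMRP family (Fmr1, Fxr1 and Fxr2), its binding partners Cyfip1 and Cyfip2, and the RNA-binding proteins Pum2, Igf2bp1, Stau1 and Stau2. They were picked by symbol, taken as the transcript name without its trailing number, and their counts were summed over all transcripts of each gene. All 9 symbols were found, each with 1 Ensembl gene, out of 45578 genes in the table, and together they had 92 annotated transcripts out of 109463.

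Ribosome profiling was performed on polysomes from whole brains of control mice at postnatal day 5. The animals were heterozygous for Smn and carried the human SMN2 transgene (Smn+/-; SMN2tg/0) on a congenic FVB background. They formed 1 group of 2 biological replicates, and both carried the same alleles, so no comparison with another genotype, age or treatment was made. The number of brains behind each replicate is not given in the labels, and polysomal fractions were pooled before digestion. Footprints are the stretches of mRNA that ribosomes shield from nuclease, so a gene's count reflects the number of ribosomes on its mRNA. In whole brain, fewer cells of a type and less RNA per cell cannot be told apart, and mRNA abundance was not analysed here.

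FMRP, the product of the X-linked gene Fmr1, binds mRNAs in neurons, travels with them in granules along dendrites and represses their translation; its loss causes fragile X syndrome. Fxr1 and Fxr2 encode its autosomal relatives, which have the same kinds of RNA-binding domains. CYFIP1 and CYFIP2 bind FMRP and are also subunits of the WAVE regulatory complex, which directs actin assembly. Pumilio proteins repress mRNAs through their 3′ untranslated regions, Staufen proteins bind double-stranded RNA in transport granules, and IGF2BP1 (also called ZBP1) carries beta-actin mRNA in embryonic cells and growing axons.

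The libraries held 1866831 footprints in replicate 1 and 5261878 in replicate 2, so values of replicate 2 carry the smaller counting error. Levels are given as CPM, the usual count scaled to the library total, with exact 95% Clopper-Pearson intervals that cover counting error only. The tissue label was checked on markers: all 7 neuron, 6 astrocyte, 6 oligodendrocyte, 5 microglia and 5 endothelial markers were detected. The summed level of the neuron markers was 4517 CPM in the first and 2985 CPM in the second replicate. Of 6 markers of liver and muscle, 1 was at 0 in both replicates and 1 reached the minimum mean count of 10 used for testing. That gene was Acta1, at 75.0 and 50.2 CPM, whose fragments can also match other actins.

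In sum, 0.136% ± 0.0295 (SD, n = 2) of all footprints fell on the 9 genes, with 1153 CPM in replicate 1 and 1570 CPM in replicate 2. Ribosomes were found on the mRNAs of 8 of them at levels above most of the genome, and on Igf2bp1 at a trace level. Cyfip2 drew the most footprints of the 9 and Igf2bp1 the fewest, before any correction for length. Among the 16427 genes whose counts averaged 10 or more, the 8 lay between percentile 84.1 (Fxr2) and percentile 98.2 (Cyfip2) of mean CPM.

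The 3 genes of the FMRP family have coding sequences of similar length (1896 nucleotides in Fmr1, 2034 in Fxr1 and 2025 in Fxr2). Their order by footprints differed between the replicates, with Fxr2 highest in replicate 1 and lowest in replicate 2. Fmr1 (ENSMUSG00000000838) drew 174 footprints from replicate 1 and 754 from replicate 2. These came to 93.2 CPM (79.9 to 108) and 143 CPM (133 to 154), respectively, or on average 118 ± 35.4 CPM (SD, n = 2). The intervals did not overlap, and replicate 2 was the higher. Fxr1 (ENSMUSG00000027680) had 156 and 697 footprints, at 83.6 CPM (71.0 to 97.8) and 132 CPM (123 to 143), with a mean of 108 ± 34.6 CPM. It was likewise higher in replicate 2, without overlap of the intervals. Fxr2 (ENSMUSG00000018765) had 205 and 456 footprints, at 109.8 CPM (95.3 to 126) and 86.7 CPM (78.9 to 94.99), with a mean of 98.2 ± 16.4 CPM. It was the 1 gene of the 9 whose level was lower in replicate 2, and its intervals just failed to overlap.

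The FMRP partners were unequal. Cyfip2 (ENSMUSG00000020340) had 675 and 2258 footprints, at 362 CPM (335 to 389.9) and 429 CPM (412 to 447), with a mean of 395 ± 47.8 CPM (SD, n = 2). Cyfip1 (ENSMUSG00000030447) had 160 and 704 footprints, at 85.7 CPM (72.9 to 100.1) and 134 CPM (124 to 144), with a mean of 109.8 ± 34.0 CPM. Both genes have a longest coding sequence of 3762 nucleotides, or 1253 residues, so their counts compare without a length correction. Cyfip2 carried more footprints than Cyfip1 in both replicates, and the intervals of the 2 genes lay far apart.

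The Staufen genes both drew more footprints than those of the FMRP family. Stau2 (ENSMUSG00000025920), the Staufen gene enriched in neurons, had 316 and 1430 footprints, at 169 CPM (151 to 189) and 272 CPM (258 to 286), with a mean of 221 ± 72.5 CPM (SD, n = 2). Stau1 (ENSMUSG00000039536), which is made in most tissues, had 245 and 982 footprints, at 131 CPM (115 to 149) and 187 CPM (175 to 199), with a mean of 159 ± 39.2 CPM. Each was higher in replicate 2 with no overlap of its intervals.

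Pum2 (ENSMUSG00000020594), a sequence-specific repressor that acts on mRNAs in dendrites, had 220 and 976 footprints, at 118 CPM (103 to 134) and 185 CPM (174 to 197), with a mean of 152 ± 47.8 CPM (SD, n = 2). It was higher in replicate 2, without overlap of the intervals.

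Igf2bp1 (ENSMUSG00000013415) stood apart from the other genes. It drew 2 footprints from replicate 1 and 6 from replicate 2, or 1.07 CPM (0.130 to 3.87) and 1.14 CPM (0.418 to 2.48). Its mean count was under the minimum of 10, so it was not tested. Of the 21874 genes with a protein-coding transcript, 34.3% had a lower mean level, and 22.9% had no footprint in either replicate. The other members of its family were also low: Igf2bp2 had 14 and 43 footprints (7.50 and 8.17 CPM) and Igf2bp3 had 7 and 45 (3.75 and 8.55 CPM). Igf2bp1 and Igf2bp3 are known chiefly from embryonic tissue, and Igf2bp2 is made more widely.

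To compare genes, levels were divided by the longest annotated coding sequence of each gene, giving footprints per kilobase of coding sequence on the CPM scale (CPM per coding kb). On this scale the order was Stau2 at 129 ± 42.3 (SD, n = 2), Stau1 at 107 ± 26.3, Cyfip2 at 105 ± 12.7, Fmr1 at 62.4 ± 18.7, Fxr1 at 53.1 ± 17.0, Fxr2 at 48.5 ± 8.08, Pum2 at 47.4 ± 14.9, Cyfip1 at 29.2 ± 9.04 and Igf2bp1 at 0.638 ± 0.0281. The 8 genes other than Igf2bp1 lay above the median of 23.5 of the 13317 tested coding genes, from percentile 56.2 (Cyfip1) to percentile 88.0 (Stau2). Of the 8 pairs of neighbours in this order, 3 were set apart in both replicates: Cyfip2 over Fmr1, Pum2 over Cyfip1, and Cyfip1 over Igf2bp1. Stau2 over Stau1 and Fmr1 over Fxr1 kept their order in both replicates but had overlapping intervals in at least 1. Stau1 and Cyfip2, Fxr1 and Fxr2, and Fxr2 and Pum2 changed places between the replicates. In replicate 2 alone, 6 neighbouring pairs were set apart, and in replicate 1 alone, 3. With a mean transcript length weighted by counts in place of the coding length, 2 pairs were set apart and Fmr1 came after Fxr1, Fxr2 and Pum2.

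**Figure D1:**
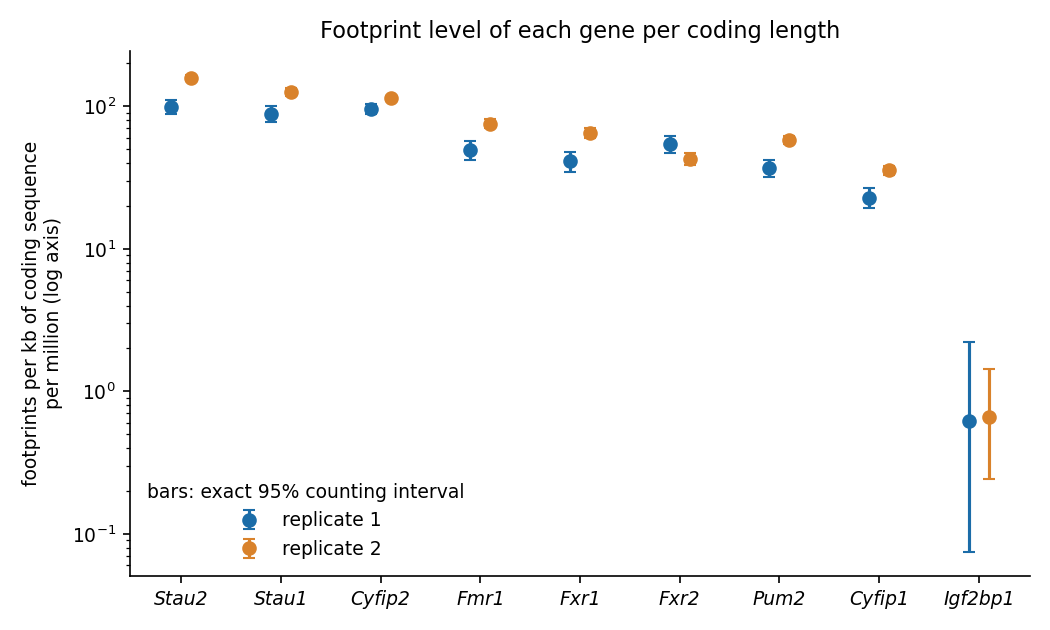
Footprints in CPM per coding kb (log axis) for the 9 genes, in the order of their means, with a point for each replicate and bars for the exact 95% counting interval. Stau2, Stau1 and Cyfip2 lie highest, Igf2bp1 lies far below the other genes with wide intervals, and Fxr2 is the gene whose point for replicate 2 lies clearly below that for replicate 1.

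**Figure D2:**
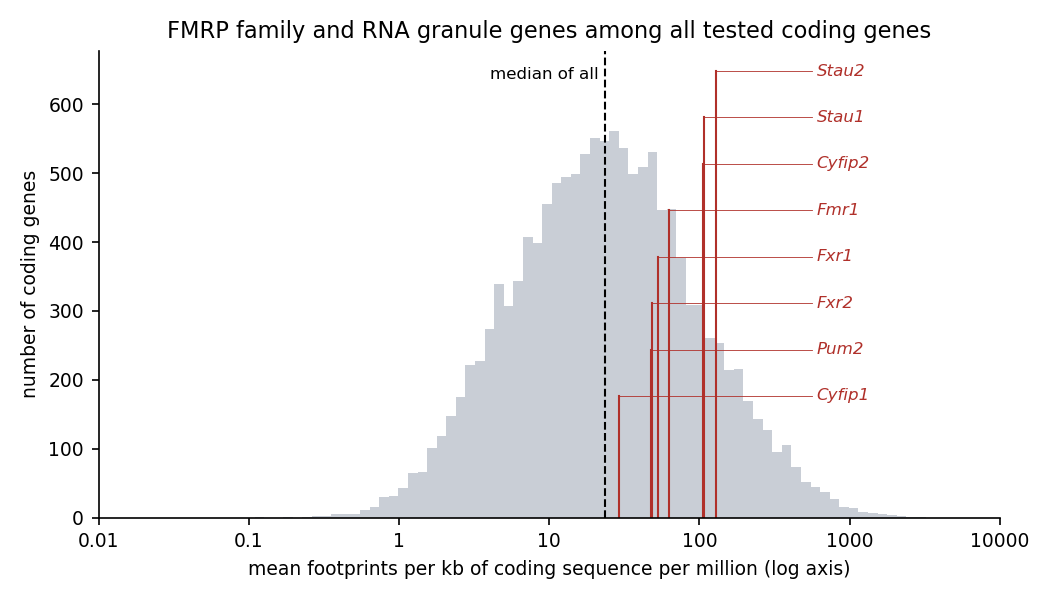
Histogram of the mean footprints in CPM per coding kb (log axis) of the 13317 tested coding genes, with red lines at the 8 tested genes of the set and a dashed line at the median of 23.5. All 8 lines stand to the right of the median, from Cyfip1 at 29.2 to Stau2 at 129.

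The use of coding length was examined on transcripts of 1 gene that share a coding length but differ at least 1.3-fold in total length, a comparison chosen after the data were examined. Pum2 and Stau2 gave 5 such pairs. The Pum2 transcripts with a coding sequence of 2958 nucleotides had 26 and 100 footprints (replicates 1 and 2) at a total length of 3295 nucleotides (Pum2-005) and 22 and 81 at 5874 nucleotides (Pum2-202). The Stau2 transcripts with a coding sequence of 1536 nucleotides had 26 and 110 footprints at 2214 nucleotides (Stau2-014) and 23 and 117 at 3907 nucleotides (Stau2-006). The longer transcript had the more footprints in both replicates for Stau2-002 (11 and 25) against Stau2-017 (4 and 19), and in replicate 2 alone for Pum2-201 (13 and 118) against Pum2-006 (26 and 83) and Stau2-016 (19 and 109) against Stau2-004 (22 and 105). Over the 5 pairs the longer transcripts held 45.8% of the footprints in replicate 1 (38.6 to 53.2) and 51.9% in replicate 2 (48.5 to 55.3), where counts proportional to total length would give 62.3%. Both intervals lay below that share. Over 1669 such pairs in all coding genes the shares were 53.7% and 52.7%, against 66.1% by length. A shared coding length does not show that the coding sequences are identical. The transcripts of a pair also share exons, and how fragments from shared exons were assigned is not given. Splitting such fragments between both transcripts would also even out their counts, so these shares cannot decide between coding and total length. The intervals treat footprints as independent draws.

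Most of the genes had their footprints spread over several overlapping transcripts, while Fxr2 and Igf2bp1 had most of theirs on 1. Fmr1 had 13 annotated transcripts, of which 6 coded for proteins of 585 to 631 residues. Those 6 had between 14 and 25 footprints each in replicate 1 and between 73 and 112 in replicate 2, and none dominated. The highest was Fmr1-005, with 22 and 112 footprints and a coding sequence of 591 residues, followed by Fmr1-001, with 25 and 98 and 614 residues, and Fmr1-008, with 22 and 94 and 585 residues. Fxr1 was likewise even: Fxr1-003 (454 residues) had 24 and 123 footprints, Fxr1-009 (677 residues) 33 and 106, and Fxr1-005 (568 residues) 22 and 115. Fxr2 had a single coding transcript, Fxr2-006 with 674 residues, which held 141 footprints in replicate 1 and 299 in replicate 2, or 68.8% and 65.6% of the gene. It was followed by the processed transcripts Fxr2-004 (18 and 62) and Fxr2-002 (17 and 43). Of the few footprints of Igf2bp1, its coding transcript Igf2bp1-001 (577 residues) held 2 and 4.

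Cyfip2 had 3 transcripts of full coding length, with 179 and 638 footprints on Cyfip2-001, 182 and 615 on Cyfip2-201 and 184 and 595 on Cyfip2-202. Cyfip1 also had 3, with 31 and 154 on Cyfip1-002, 28 and 149 on Cyfip1-006 and 31 and 137 on Cyfip1-001. The leading Stau1 transcripts were Stau1-003 (38 and 162 footprints, 495 residues), Stau1-001 (36 and 152, 489 residues) and Stau1-002 (42 and 136, 487 residues). Stau2 had 10 coding transcripts with at least 80% of the longest coding length, with 19 to 34 footprints each in replicate 1 and 105 to 140 in replicate 2. They were led by Stau2-009 (32 and 140, 538 residues), Stau2-001 (34 and 127, 570 residues) and Stau2-003 (30 and 122, 538 residues). Pum2 was led by Pum2-001 with 27 and 116 footprints, the nonsense-mediated decay transcript Pum2-004 with 33 and 105, and Pum2-201 with 13 and 118. Transcripts of a gene share most of their exons, and how a fragment that matches several of them was assigned is not given in the sources used here, so these counts do not rank isoforms.

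Transcripts not annotated as protein coding held a sizeable share of the footprints in several of the genes. They share exons with the coding transcripts, so a footprint counted on them need not come from them. The share was highest for Stau1, at 40.9% ± 0.734 (SD, n = 2), followed by Fxr2 at 32.8% ± 2.27, Cyfip1 at 30.5% ± 1.53 and Fmr1 at 29.9% ± 1.59. It was 20.9% ± 5.11 for Pum2, 17.5% ± 1.20 for Fxr1 and 8.88% ± 2.27 for Stau2, while all 5 transcripts of Cyfip2 were coding. The median over the 8042 genes with both kinds of transcript was 26.8%.

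The classes differed between the genes. Retained introns, transcripts that keep an intron, took 25.3% and 26.8% of the Fmr1 footprints in replicates 1 and 2, 29.4% and 31.5% of those of Cyfip1 and 25.3% and 24.5% of those of Stau1. Transcripts marked for nonsense-mediated decay, the pathway that destroys mRNAs with early stop codons, took 20.0% and 14.3% of the Pum2 footprints, 13.5% and 14.4% for Stau1 and 12.2% and 15.6% for Fxr1. In Fmr1 and Stau1, non-coding transcripts made up 29.1% and 41.5% of the annotated length, within the counting intervals of their shares of the footprints. In Fxr1, Fxr2, Cyfip1 and Stau2 the values were 29.98%, 46.5%, 40.7% and 13.5%, above their shares of the footprints. In Pum2 it was 18.3%, between its shares in the replicates. Retained introns of Fxr1 were thin, with 7 and 19 footprints, or 4.49% and 2.73%, on 17.8% of the annotated length.

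No difference between the replicates in the share on non-coding transcripts was detectable at this depth. None of the 7 genes passed Fisher's exact test (two-sided) after Benjamini-Hochberg adjustment, where 0.0746% of the 8042 genes did. The smallest adjusted p was 0.830 for Pum2, with an unadjusted p of 0.0164, the 1 below 0.05 among the 7. Its share was 24.5% (19.0 to 30.8) in replicate 1 and 17.3% (15.0 to 19.8) in replicate 2.

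**Figure D3:**
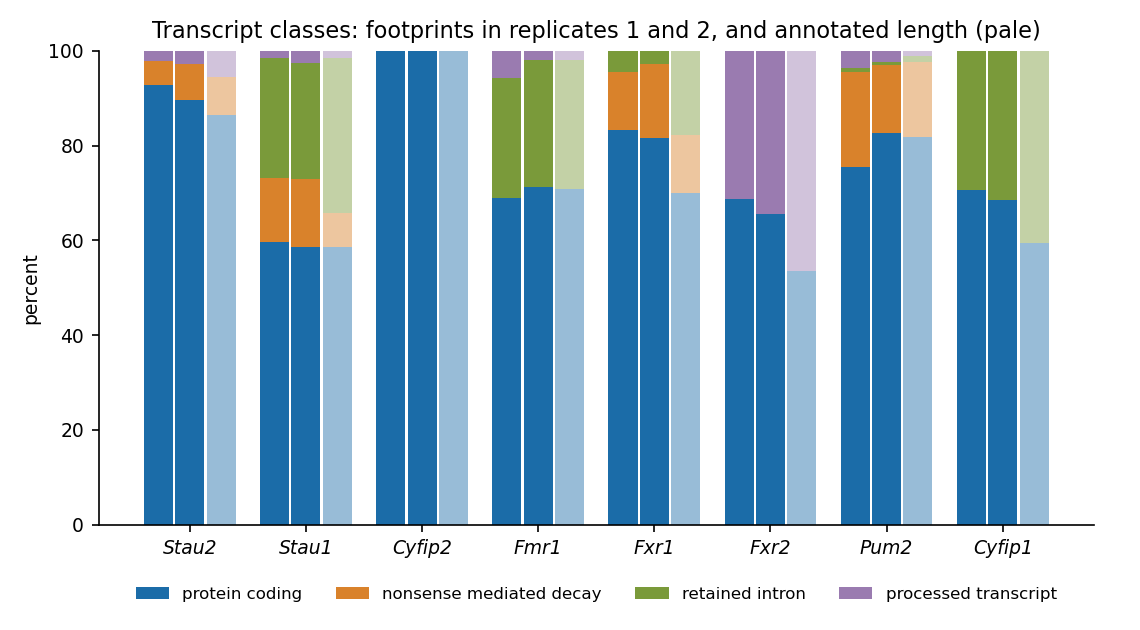
Percent of each gene's footprints on each annotated transcript class in replicates 1 and 2 (dark bars), beside the percent of annotated transcript length in that class (pale bars), for the 8 tested genes. Cyfip2 has coding transcripts alone, Stau1 has the largest non-coding share at 40.9%, and the coding share of Pum2 differs most between the replicates, at 75.5% and 82.7%.

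Although the replicates had the same genotype and age, most of these genes differed between them by more than counting noise. In replicate 2, 6 of the 8 tested genes were higher (Fmr1, Fxr1, Cyfip1, Pum2, Stau1 and Stau2), 1 was lower (Fxr2), and Cyfip2 did not pass the test. Over all 16427 tested genes, 17.4% were called, 5.95% higher and 11.5% lower in replicate 2. Among the deeper genes, whose counts averaged 100 or more, where all 8 belong, 34.0% were called, 11.2% higher and 22.8% lower. For each gene, both counts entered an exact binomial test (two-sided), whose null share came from library sizes scaled by TMM (trimmed mean of M values), with Benjamini-Hochberg adjustment over all tested genes, and an adjusted p under 0.05 was called. The test compares 2 libraries and leaves out variation between biological samples.

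Stau2 had the largest ratio. Its log2 ratio of replicate 2 over replicate 1 was 0.56 (0.38 to 0.74, exact test adjusted p = 5.11e-09). Fxr1 followed at 0.54 (0.29 to 0.80, adjusted p = 0.000230 in the same exact test), Pum2 at 0.53 (0.32 to 0.75, exact test adjusted p = 1.04e-05) and Cyfip1 at 0.51 (0.27 to 0.77, exact test adjusted p = 0.000410). Fmr1 had a log2 ratio of 0.49 (0.25 to 0.74) and Stau1 one of 0.38 (0.18 to 0.59), with adjusted p-values of 0.000465 and 0.00208 by the same exact test. These 6 ratios overlapped in their intervals. Fxr2 had a log2 ratio of -0.47 (-0.71 to -0.22, exact test adjusted p = 0.00204), and Cyfip2 one of 0.12 (-0.0038 to 0.25, exact test adjusted p = 0.195).

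The median log2 ratio of the 8 was 0.50, against 0.0028 over all tested genes. The ratio of a gene fell with its footprint density in these libraries. A local trend gave values between -0.15 (Stau2) and -0.01 (Cyfip1) at the densities of the 8. Its sign was opposite to that of the ratios of 7 of them and the same as that of Fxr2. The trend was fitted to the same 2 libraries, and its part in the differences was not tested. With the trend removed, Cyfip2 also passed the test as higher in replicate 2, at 0.26 (exact test adjusted p = 0.000475), as it did with library totals in place of TMM, at 0.25 (exact test adjusted p = 0.00106). Under each of these settings all 8 genes were called, where 16.1% of all genes were with the trend removed and 19.0% with library totals. These shares cover genes of all depths. With TMM and no trend removed, the share was 17.4% over all genes and 34.0% among genes whose counts averaged 100 or more. The direction of each of the 8 was the same with TMM, DESeq2 size factors and library totals.

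Some cell type markers also differed between the replicates. Of the 7 neuron markers, all with counts averaging 100 or more, 6 were called lower in replicate 2 and none higher, at a median log2 ratio of -0.58, where 22.8% of genes of that depth were lower. With the density trend removed, 5 were lower, at a median of -0.38. Of the 5 red cell markers, 4 were lower at a median of -0.69, and 1 was lower at a median of -0.07 with the trend removed. Of the other markers, 2 of 6 for astrocytes were lower and none higher, and 2 of 6 for oligodendrocytes were higher and 2 lower. For microglia, 1 of 5 was higher and 1 lower, and 1 of 5 for endothelium was lower. Over all tested genes 5.95% were called higher and 11.5% lower, or 11.2% and 22.8% among those whose counts averaged 100 or more. After removal of the trend, 1 astrocyte marker was higher and 1 lower, and 3 oligodendrocyte markers were higher and 2 lower. Microglia then had 1 higher and 1 lower, and endothelium 0 higher and 1 lower. The part of the cell type markers in the differences described here was not tested.

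The spread between biological samples could not be estimated apart from these differences, since each library is the only one on its side. The exact test of edgeR used a common dispersion (a biological coefficient of variation of 0.167) that was taken from the same 2 libraries, so it counts the difference under test as spread. It called 11 genes of 16427 (0.0670%) and none of the 8, of which none had an unadjusted p under 0.05. The log2 ratios are not altered by this test. With the highest transcript alone standing for each gene, 1 of the 8 was called, Fxr2, which was lower in replicate 2, where 11.4% of all genes were called and 10.2% were lower. On these smaller counts, the log2 ratios of the genes that lost the call were 0.70 for Fmr1, 0.71 for Fxr1 and 0.67 for Cyfip1. They were 0.47 for Pum2, 0.46 for Stau1 and 0.49 for Stau2. The transcript was picked by its summed count, to which the deeper replicate 2 gives most, so the pick favours transcripts high in replicate 2. For the transcript with the next highest count of each gene, in the same order, they were 0.34, 0.06, 0.77, 0.04, 0.44 and 0.27.

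**Figure D4:**
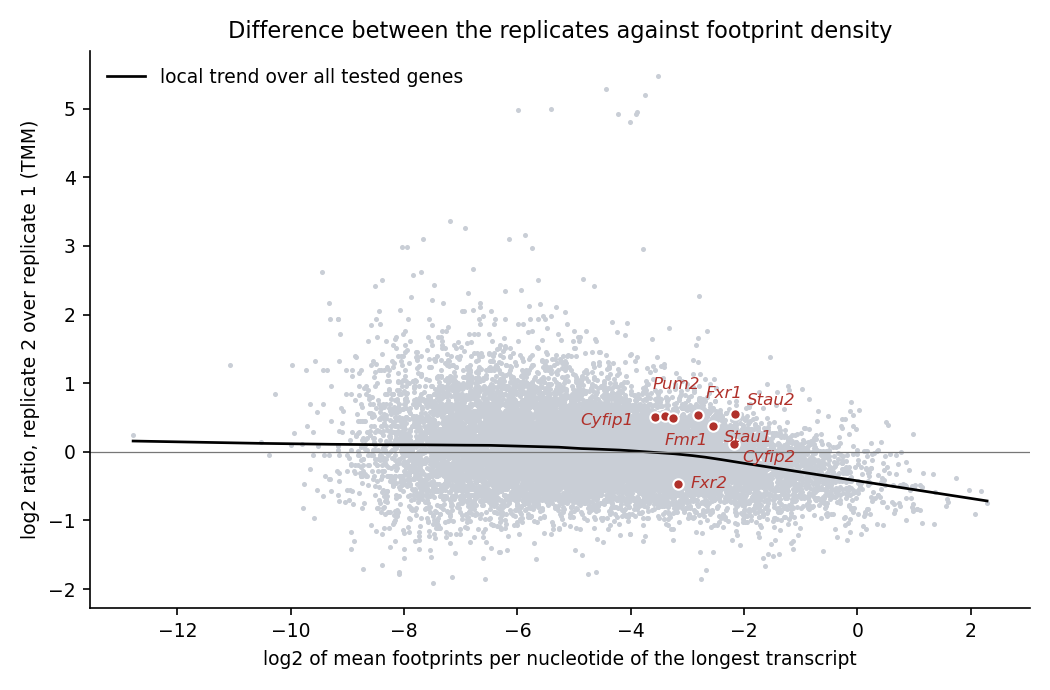
Log2 ratio of replicate 2 over replicate 1 with TMM scaling against the log2 of mean footprints per nucleotide of the longest transcript, for all 16427 tested genes (grey) with their local trend (black line) and the 8 tested genes of the set (red). Of the red points, 6 lie between 0.38 and 0.56, Cyfip2 lies near 0 at 0.12, and Fxr2 lies at -0.47.

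Single transcripts rarely passed the same test. Of the 92 transcripts, 76 reached the minimum mean count and 3 were called, 2 higher and 1 lower in replicate 2. Of all 43655 tested transcripts 5.08% were called, 0.815% higher and 4.26% lower. Pum2-201 was higher in replicate 2 (13 and 118 footprints, log2 ratio 1.49, exact test adjusted p = 0.00156), as was Stau2-005, a nonsense-mediated decay transcript (16 and 111, log2 ratio 1.13, exact test adjusted p = 0.0294). The coding transcript Fxr2-006 was lower (log2 ratio -0.53, exact test adjusted p = 0.0109). A log2 ratio above 0 was found for 63 of the 76. Transcripts of a gene share exons, so these repeat the direction of their genes and are not separate observations.

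Ratios of related genes within 1 library do not depend on how libraries are scaled, and 6 pairs were compared in this way per coding length, of which 5 are given. The balance of Fxr2 against both of its relatives differed between the replicates, and so did that of Cyfip1 against Cyfip2 with all transcripts counted. The ratio of Fmr1 to Fxr1 was 1.20 (0.958 to 1.49) in replicate 1 and 1.16 (1.05 to 1.29) in replicate 2. Its mean of 1.18 became 0.844 when the coding length of the most abundant transcript was used, so the order of these genes depends on the length chosen. The ratio of Fmr1 to Fxr2 was 0.907 (0.736 to 1.11) in replicate 1 and 1.77 (1.57 to 1.99) in replicate 2, and that of Fxr1 to Fxr2 was 0.758 (0.611 to 0.938) and 1.52 (1.35 to 1.72). Both ratios were about as far apart between the replicates under other choices, but whether Fxr2 lay above Fxr1 in replicate 1 depended on the choice. In that replicate the ratio of Fxr1 to Fxr2 was 0.918 (0.718 to 1.17) with coding transcripts alone and 1.13 (0.911 to 1.40) with the coding length of the most abundant transcript. In replicate 2 it was 1.89 and 2.27 under these choices.

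Fisher's exact test (two-sided, adjusted over the 6 pairs) gave adjusted p-values of 7.35e-08 for Fmr1 to Fxr2 and 5.91e-08 for Fxr1 to Fxr2, and 0.835 for Fmr1 to Fxr1. Cyfip2 exceeded Cyfip1 4.22-fold (3.55 to 5.04) in replicate 1 and 3.21-fold (2.95 to 3.50) in replicate 2. This difference between the replicates had an adjusted p of 0.0101 in the same exact test, or 0.0703 with coding transcripts alone. Expressed as Cyfip1 to Cyfip2, the ratios were 0.237 and 0.312. With coding transcripts alone they were lower, at 0.167 (0.136 to 0.205) and 0.213 (0.193 to 0.236), so the size of the excess depends on the transcripts counted. Stau1 stood to Stau2 at 0.893 (0.752 to 1.06) and 0.791 (0.728 to 0.858), with an adjusted p of 0.324 in that exact test. With coding transcripts alone the mean ratio of Stau1 to Stau2 was 0.545 in place of 0.842.

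**Figure D5:**
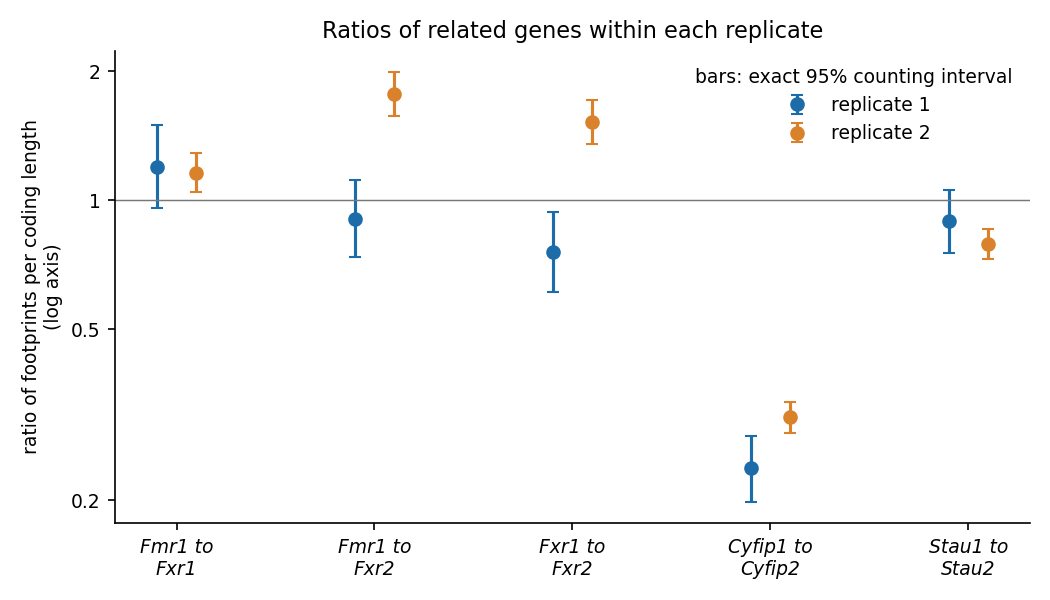
Ratio of footprints per coding length (log axis) for 5 pairs of related genes, with a point for each replicate and bars for the exact 95% counting interval. The intervals of the replicates overlap for Fmr1 to Fxr1 and for Stau1 to Stau2, and lie apart for both ratios that involve Fxr2 and, by little, for Cyfip1 to Cyfip2.

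The lists of related genes are read against the share of all genes of like depth: most of their members averaged 100 counts or more, where 11.2% of genes were called higher and 22.8% lower in replicate 2.

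The WAVE regulatory complex holds 1 CYFIP subunit beside 1 of each of its other subunits. Per coding length, Cyfip1 and Cyfip2 together had 119 CPM per coding kb in replicate 1 and 149.6 in replicate 2. Nckap1 and Nckap1l, the scaffold subunits that pair with CYFIP, together had 76.8 and 101. Abi1 and Abi2, the adaptor subunits, had 239 and 321, Wasf1, Wasf2 and Wasf3, the subunits that activate actin assembly, had 216 and 199.6, and Brk1, the smallest subunit, had 221 and 198. The Nckap pair thus lay at 0.646 and 0.675 of the Cyfip pair, and the Abi pair at 2.01 and 2.15 times it. The Wasf genes lay at 1.82 and 1.33 times it and Brk1 at 1.86 and 1.33 times it, lower in replicate 2. These differences in ratio were not tested. The other WAVE genes and the activating GTPase gene Rac1 did not move one way between the replicates: of 9 tested, 3 were called higher and 2 lower in replicate 2, at a median log2 ratio of -0.13. With the density trend removed, 3 were higher and 0 lower. Rac1 was at 321 ± 26.2 CPM and Nckap1 at 293 ± 57.1 CPM (SD, n = 2), and Abi1 had a log2 ratio of 0.37 (exact test adjusted p = 0.00947).

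Footprints were found on all 12 genes for protein partners of FMRP and stress granule proteins. Of these, 7 were called, 5 higher and 2 lower in replicate 2, with a median log2 ratio of 0.07. Once the density trend was removed, 6 were higher and 1 lower, at a median of 0.25. The most abundant were Caprin1, a translation regulator that binds FMRP, at 534 ± 78.4 CPM (SD, n = 2), and G3bp2, a core stress granule protein, at 383 ± 16.0 CPM. Tial1, an RNA-binding protein of stress granules, had the largest called ratio, at 0.65 (93 and 451 footprints, exact test adjusted p = 0.000498). Among other repressors, Cpeb2, which controls translation through the 3′ untranslated region, was at 109 ± 7.04 CPM. Nanos2, a germ cell gene, had no footprint, and a floor of 3 counts puts its level at no more than 1.61 CPM (replicate 1) or 0.570 CPM (replicate 2).

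Genes for proteins that bind beta-actin mRNA with IGF2BP1 were well represented among the footprints although Igf2bp1 was not. Hnrnpu was at 384 ± 13.4 CPM (SD, n = 2) and Ybx1 at 311 ± 14.0 CPM. Of the 8 genes on that list, which includes Igf2bp2 and Igf2bp3, 1 was called higher and 2 lower in replicate 2, at a median log2 ratio of 0.04. After removal of the density trend, 3 were higher and 1 lower, at a median of 0.20. Khsrp, which promotes decay of mRNAs with AU-rich elements, had the largest called ratio, at -0.46 (361 and 804 footprints, exact test adjusted p = 1.44e-05).

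Genes for proteins of neuronal transport granules moved in both directions. Of 13 tested, 4 were called higher and 7 lower in replicate 2, at a median log2 ratio of -0.30, where 22.8% of genes of their depth were lower. With the density trend removed, 5 were higher and 6 lower, at a median of -0.06. Kif5c, a kinesin motor that pulls granules along dendrites, was at 580.2 ± 96.8 CPM (SD, n = 2). Pura, a granule protein bound to Kif5, had the largest called ratio, at -0.77 (243 and 438 footprints, exact test adjusted p = 3.63e-09).

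Among mRNAs that have been reported as bound by FMRP in mouse brain, 4 of 19 were called higher and 5 lower in replicate 2, at a median log2 ratio of -0.09. With the density trend removed, 5 were higher and 5 lower, and the median was 0.07. Map1b, a microtubule-associated protein and a classic FMRP target, was at 1542 ± 407 CPM (SD, n = 2) and Kif1a, an axonal kinesin, at 1067 ± 32.8 CPM. App, the amyloid precursor gene, had the largest called ratio, at -0.96 (2052 and 3247 footprints, exact test adjusted p = 7.01e-112).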

How the data were processed

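Footprints of 25 to 35 nucleotides from polysomes of control mouse brain (2 biological replicates) were sequenced, per the labels' protocols. The authors deposited whole-number counts per transcript, with no normalization. Per the submitters' processing notes, Trimmomatic 0.36, Bowtie2 2.2.6, SAMtools and the build GRCm38.p4 were used. The annotation release and the handling of fragments that match several transcripts are not given in the sources used here, and a fragment counted on several transcripts would raise sums per gene and make the intervals and p-values too small.

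Counts were summed per gene and divided by the library total (1866831 and 5261878). Genes whose counts averaged 10 or more were tested with exact binomial tests (scipy 1.17.1) against library sizes scaled by TMM (edgeR 4.0.16), with Benjamini-Hochberg adjustment. A prior of 0.5 CPM was added in log2 ratios. With 1 group, no quasi-likelihood fit was possible. The binomial test was tried on simulated counts that held counting error only, so the simulation does not cover variation between samples. Alternatives were DESeq2 1.42.0 size factors, library totals, edgeR's exact test with a common dispersion, other minimum counts, other transcript sets, other lengths and a trend removed (lowess, statsmodels 0.14.6). Each library is a biological replicate per the labels. Copies made by PCR are not independent molecules, so intervals and floors cover counting error only.

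The genes and lists were chosen with earlier results of these data known. Named were all 9 genes, the 2 most abundant genes of each list and its called gene with the largest ratio, and the 3 most abundant transcripts of each gene with every called one. Markers are given as sums and counts. Some results that this rule names are not reported here.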

Additional observations from a re-analysis of the deposited data

How the results depend on the processing

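The count of called genes was 11 with edgeR's exact test and a common dispersion (719 at an unadjusted p under 0.05) and 1756 with the most abundant transcript standing for each gene, against 2861. Under these settings 0 and 1 of the 8 tested genes of the set were called, against 7. The edgeR test does not alter the log2 ratios. With the single transcript they rest on fewer counts and on a pick that favours transcripts high in replicate 2. The edgeR dispersion came from the difference under test. With that single transcript the summed level was 299 CPM against 1362 CPM, since fewer transcripts were counted. Of the called genes, 34.2% were higher in replicate 2 with TMM and 60.7% with library totals. Leaving out each replicate gave summed levels of 1153 to 1570 CPM and 3 to 6 neighbouring pairs set apart. Testing retained introns alone left 3 genes of 5515 whose share differed, against 6 of 8042. The log2 ratios of the 8 genes kept their direction under every setting run. With edgeR's test and with other minimum counts they could not change, since these settings alter only the p-values. Of 80 values over genes and settings, 13 lost the call and 2 gained it. No paired analysis was possible because there was 1 group. Depth limits Igf2bp1 and most single transcripts.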

Other observations

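Genes that act at the cap of the mRNA, where FMRP and CYFIP1 are known to repress initiation, were called in 1 direction: 6 of 11 were higher in replicate 2 and 0 lower, at a median log2 ratio of 0.28, where 11.2% of genes with counts averaging 100 or more, as 9 of these do, were called higher. After removal of the density trend, 7 of the 11 were higher and 0 lower, at a median of 0.36. Eif4a1, the main helicase of initiation, was at 768 ± 31.4 CPM (SD, n = 2) and Eif4a2, its relative, at 577 ± 139 CPM. Paip1, which binds the poly(A)-binding protein, had the largest called ratio, at 0.48 (222 and 953 footprints, exact test adjusted p = 8.63e-05).

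Of 15 genes of P-bodies and microRNA-mediated silencing, 2 were called higher and 1 lower, at a median log2 ratio of -0.06. Once the density trend was removed, 2 were higher and 1 lower, at a median of -0.16. Ddx6, a helicase of P-bodies, was at 129.7 ± 9.78 CPM (SD, n = 2) and Upf1, the helicase of nonsense-mediated decay, at 91.7 ± 4.42 CPM. Xrn1, the 5′ to 3′ exonuclease, had the largest called ratio, at 0.64 (54 and 261 footprints, exact test adjusted p = 0.0156).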
